A study of Mus musculus with 12 samples.

Results

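The lineage transcription factors of mimetic medullary thymic epithelial cells (mTEC) described here are *Hnf4a*, *Hnf4g*, *Spib*, *Sox8*, *Foxj1*, *Grhl3*, *Foxa2*, *Foxa3*, *Ptf1a* and *Myog*. They were taken by symbol from a list of names and make up 10 of the 34547 genes for which counts could be summed. All 10 were also present in the table of 34677 genes on the regularized log2 scale. RNA was sequenced from 12 libraries of sorted thymic epithelium, 3 each of wild-type (WT) mTEC, Aβ0/0 mTEC, WT cortical TEC (cTEC) and Aβ0/0 cTEC. WT mice were C57BL/6, and Aβ0/0 mice carry a disrupted *H2-Ab1*, the gene of the MHC class II β chain, in all their cells, so that neither thymic epithelium nor hematopoietic cells present antigen on MHC class II. Every library came from a pool of 5 to 10 mice aged 4 to 6 weeks. Both subsets were gated on EpCAM and on the absence of CD45, with mTEC taken as UEA1+ Ly51- and cTEC as Ly51+ UEA1-. The replicates are separate pools, so the errors below are the spread between pools, including sorting and amplification.

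Mimetic mTEC are small groups of medullary cells that take on features of cells found outside the thymus, such as enterocytes, microfold cells, ciliated cells, keratinocytes, secretory cells, pancreatic acinar cells or muscle. Each kind expresses the transcription factor that defines the same lineage in the periphery, and displays part of the antigens of that lineage to developing T cells. The factors are thus known both as regulators of a tissue and as marks of a kind of mTEC. Since each kind is a small share of the medulla, a bulk library holds the sum of many cells without the factor and a few with it, and fewer cells of a kind cannot be told apart from less RNA per cell.

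The estimated counts of the libraries summed to between 21.7 and 36.1 M. After thinning to 21605226 counts, 20018 to 20863 genes had at least 5 counts in the WT mTEC libraries and 15705 to 17611 in the Aβ0/0 mTEC libraries, with 15688 to 17109 in WT cTEC and 14642 to 16476 in Aβ0/0 cTEC. The correlation of log2 counts between replicates was between 0.97 and 0.971 in WT mTEC and between 0.918 and 0.923 in Aβ0/0 mTEC. The study lists fewer sorted mTEC for each Aβ0/0 replicate than for any WT replicate, and fewer cTEC than mTEC for every pool. Cell number therefore cannot be told apart from genotype or subset. *H2-Ab1* was at 9032, 11200 and 10490 CPM (counts scaled to library size) in WT mTEC and at 1900, 3853 and 2925 in Aβ0/0 mTEC, so every Aβ0/0 mTEC library was below every WT one, with transcript of the disrupted gene still counted. *Aire*, the regulator of tissue-restricted antigens in mTEC, was at 1003, 526 and 444 CPM in WT and 180, 121 and 129 CPM in Aβ0/0 mTEC. The sorted subsets carried their defining genes, as the 8 cortical genes of a list that includes *Psmb11* and *Prss16* summed to between 9727 and 25040 CPM in cTEC and between 1354 and 2956 CPM in mTEC.

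The factors differed widely in level in WT mTEC. Per transcript length, *Spib* came first with 125 ± 40.1 TPM (transcript abundance scaled to length and library size, SD, n = 3) and *Myog* second with 91.5 ± 21.3 TPM. *Foxj1* followed with 17.4 ± 8.62 TPM and *Grhl3* with 10.2 ± 4.46 TPM, then *Sox8*, *Hnf4g*, *Foxa3* and *Foxa2* between 5.33 and 3.47 TPM on average, and *Ptf1a* and *Hnf4a* last with 1.74 ± 0.12 and 1.54 ± 0.935 TPM. The libraries of *Myog* did not overlap those of *Foxj1*, nor those of *Foxa2* those of *Ptf1a*, whereas all other neighbors in this order overlapped. In Aβ0/0 mTEC *Spib* and *Myog* again led with 115 ± 50.2 and 113 ± 44.2 TPM, *Sox8* came next with 12.1 ± 9.95 TPM, and *Ptf1a* was listed at 0. The remaining neighbors overlapped, apart from *Myog* with *Sox8* and *Hnf4a* with *Ptf1a*.

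All 10 factors had more than 3 counts in each of the 3 WT mTEC libraries. In Aβ0/0 mTEC, 1 factor was at 3 counts or fewer in replicate 1 (*Ptf1a*), 4 in replicate 2 (*Hnf4a*, *Foxa2*, *Foxa3* and *Ptf1a*) and 3 in replicate 3 (*Hnf4a*, *Hnf4g* and *Ptf1a*). In cTEC this number was 1, 3 and 5 in the WT replicates and 4, 6 and 8 in the Aβ0/0 replicates. Different factors were missing from different Aβ0/0 mTEC pools, and of the 10 only *Ptf1a* from all 3 of them.

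**Figure D1:**
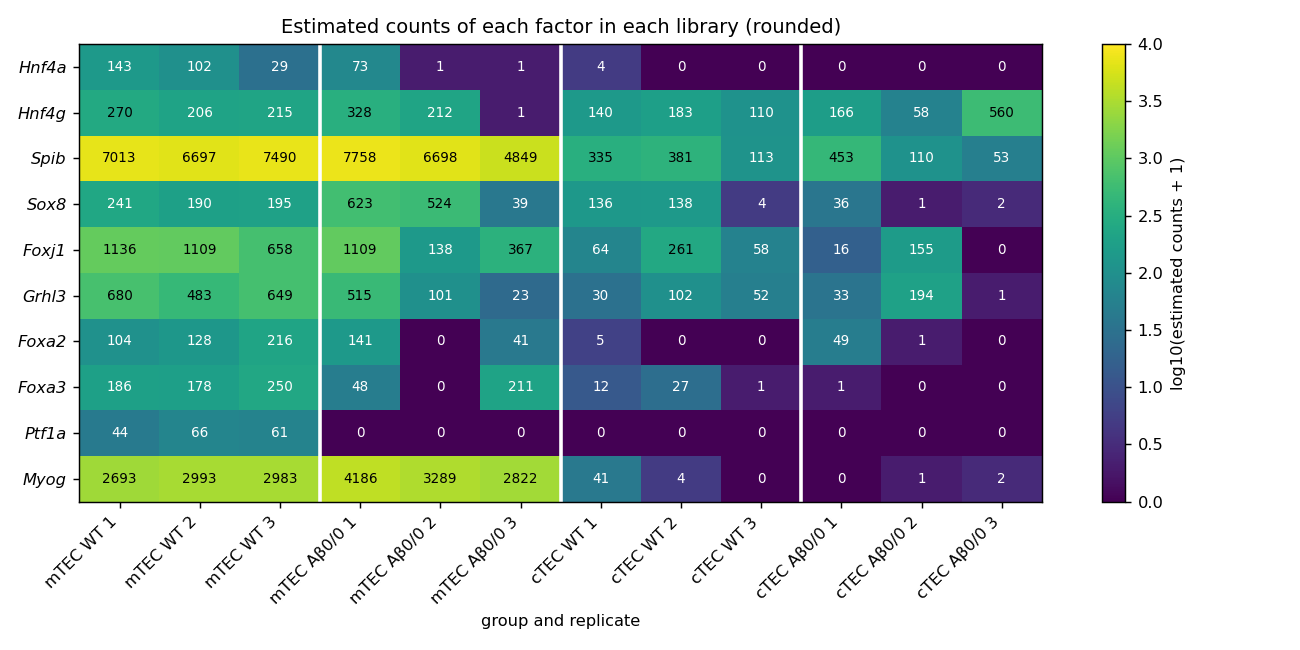
Estimated counts, rounded, of each factor (rows) in each of the 12 libraries (columns, by group and replicate), with the color on a log10(counts + 1) scale. In WT mTEC the lowest value was 29, for *Hnf4a* in replicate 3, while Aβ0/0 mTEC held 8 values of 3 counts or fewer.

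These missing values were set beside those of other genes in the same class of CPM. Of the 6198 genes with a mean of 1 to 10 CPM in WT mTEC, 21.5% had at most 3 counts in Aβ0/0 replicate 1, 38.4% in replicate 2 and 38.1% in replicate 3, against 1 of 6, 4 of 6 and 3 of 6 factors in that class. In the reverse direction, of the 4688 genes at 1 to 10 CPM in Aβ0/0 mTEC, 1.49% to 1.73% had at most 3 counts in a WT mTEC library, and none of the 4 factors in that class did. Low transcripts were thus missing from single Aβ0/0 pools over the whole table, and this was not shown to be particular to the factors. The coefficient of variation of CPM had a median of 32.4% over the 10 factors in WT mTEC and of 96.4% over the 9 with counts in Aβ0/0 mTEC, next to 19.8% and 47.9% over all genes tested. It was larger in Aβ0/0 mTEC for 9 of 9 factors and for 87.7% of all genes.

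The genotypes were then compared in mTEC. All 10 factors passed the filter on low counts, 1 of them (*Ptf1a*) was called higher in WT and none lower, by edgeR's quasi-likelihood test at an adjusted p under 0.05 over all genes tested. Of all 18636 genes, 5.32% were called higher in WT and 0.338% lower, so that 1 of 10 factors is a count near the background. *Ptf1a* was at 0 in all Aβ0/0 mTEC libraries and passed the filter only through WT, the group where it was high. The count over all genes was itself unstable, as it ranged from 0 without any 1 of the WT replicates to 2377 without Aβ0/0 replicate 1. All 3 WT libraries were above all 3 Aβ0/0 libraries for 1 of 10 factors, again *Ptf1a*, and for 18.2% of all genes. The fitted difference was toward WT for 8 of 10 factors. The median log2 fold change was 0.88 over the factors and 0.00257 over all genes.

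In WT mice 8 of 10 factors were called higher in mTEC than in cTEC, against 18.0% of the 18667 genes tested, and all 3 mTEC libraries were above all 3 cTEC libraries for 10 of 10 factors, against 30.1% of the genes. Factors such as *Ptf1a*, *Hnf4a*, *Foxa2* and *Myog*, nearly absent from cTEC, passed the filter only through mTEC and had to differ. *Hnf4g* and *Sox8* were not called. In Aβ0/0 mice 7 factors could be tested, of which 2, *Spib* and *Myog*, were called higher in mTEC, against 3.45% of 15687 genes. *Myog*, with at most 2 counts in an Aβ0/0 cTEC library, passed the filter there only through mTEC and had to differ. There, all mTEC libraries were above all cTEC libraries for 4 of the 7 factors (*Foxj1*, *Myog*, *Sox8* and *Spib*) and for 15.1% of the genes. The comparisons of subsets and of genotypes share libraries and are not independent of each other.

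**Figure D2:**
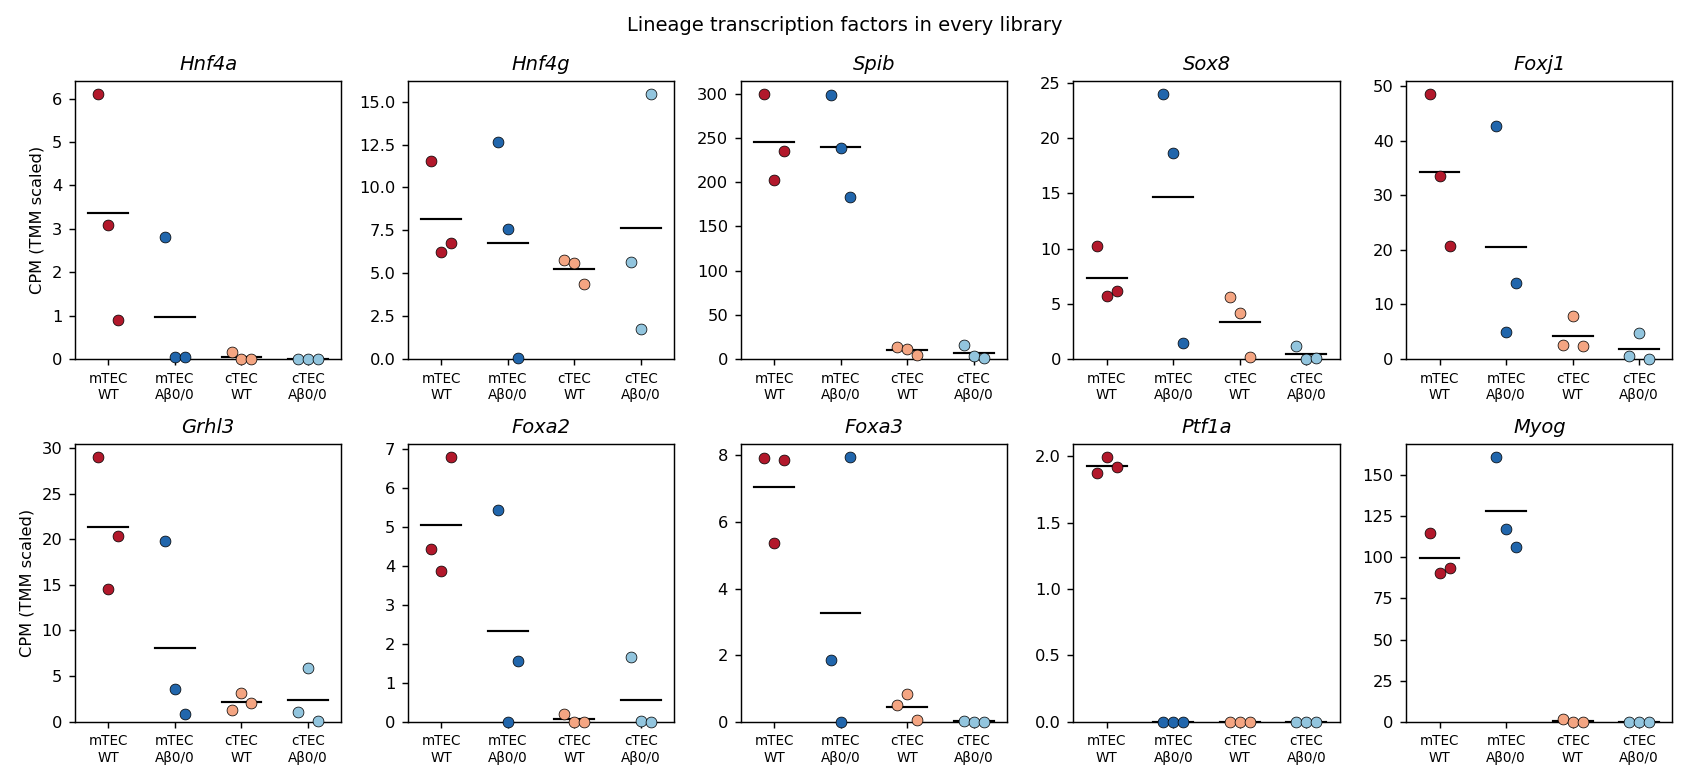
CPM, scaled by TMM over all 12 libraries, of each factor in each library (points) with the group mean (bars), on linear axes that start at 0 and differ between panels. *Spib* and *Myog* were at similar levels in mTEC of both genotypes and far lower in cTEC, *Ptf1a* had counts in WT mTEC alone, and the Aβ0/0 mTEC points of *Hnf4a*, *Sox8*, *Foxj1* and *Grhl3* were widely spread.

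*Ptf1a*, a bHLH factor of the pancreas that drives the genes of acinar enzymes, had 44, 66 and 61 estimated counts in WT mTEC replicates 1, 2 and 3, and 0 in each of the 9 other libraries. This was 1.88, 1.99 and 1.92 CPM, the smallest spread among the factors in WT mTEC with a coefficient of variation of 3.09%. The WT mTEC mean was at least 18.35-fold higher than in Aβ0/0 mTEC and at least 17.96-fold higher than in WT cTEC, each set against a floor of 3 counts per library. These bounds used CPM relative to the plain library total, unlike the values above. edgeR gave an adjusted p = 0.0352 against Aβ0/0 mTEC and 0.00537 against WT cTEC. The genotype call was lost without any of 5 of the 6 replicates, where the adjusted p was between 0.0587 and 0.138, and was kept without Aβ0/0 replicate 1 (adjusted p = 0.0298, edgeR). Part of the gene, 609 exonic bases, overlaps the antisense gene *Ptf1aos*, and reads of both cannot be told apart there because the kit does not mark strand.

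*Ptf1a* lies on chromosome 2 between 19445663 and 19447501 on the plus strand (GRCm38). Its promoter as given by RefSeq (GRCm38.p6, chr2:19445413-19445712, plus strand, from 250 bases before the start to 50 after it) is shown because *Ptf1a* was the factor lost in all Aβ0/0 mTEC libraries. Capitals would mark an E-box, CANNTG, the motif that bHLH factors bind, but these letters did not occur in it.

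Ptf1a promoter: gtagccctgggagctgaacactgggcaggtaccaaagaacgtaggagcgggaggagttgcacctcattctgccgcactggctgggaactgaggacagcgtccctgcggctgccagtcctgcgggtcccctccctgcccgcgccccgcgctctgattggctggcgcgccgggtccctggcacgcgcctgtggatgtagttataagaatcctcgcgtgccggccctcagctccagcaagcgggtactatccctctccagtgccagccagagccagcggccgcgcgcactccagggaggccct

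Nor did the window hold the TATA letters TATAAA or the MEF2 core TATTTAT on either strand. Over all 32851 RefSeq promoters of this length, 72.3% held CANNTG, 13.6% TATAAA and 5.6% TATTTAT.

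Of 20 acinar cell genes 18 were tested, and 5 were called higher in WT mTEC and none lower, with a median log2 fold change of 2.89 next to 0.00257 over all genes. *Cela3b*, an elastase, had 7.97, 7.16 and 5.63 CPM in the WT libraries and 0 in the 3 Aβ0/0 libraries, at least 66.3-fold higher in WT (edgeR adjusted p = 0.0352). *Cuzd1*, a zymogen granule gene, was at 6.89 ± 3.99 CPM in WT with at most 1 count in an Aβ0/0 library, as was the trypsinogen *Try4* at 2.61 ± 0.27 CPM, whose reads may be shared with its near copies. *Clps*, the pancreatic colipase, stayed detectable at 24.7 ± 15 CPM in WT and 3.5 ± 1.05 CPM in Aβ0/0 mTEC (log2 fold change 2.81, SE 0.59, adjusted p = 0.0413, edgeR). The fifth was the lipase gene *Pnlip*, which lay outside the rule for named genes and was named after its values were seen. Between 9 and 12 of the 20 genes had at most 3 counts in an Aβ0/0 mTEC library and 0 or 1 in a WT one. Of the called genes, all but *Clps* had at most 1 count in an Aβ0/0 mTEC library and passed the filter only through WT. Many acinar fits were thus set against counts near 0, so their median is not a like comparison with that of all genes. The summed acinar level overlapped between the genotypes, with 329.5, 294 and 272 CPM in WT and 280.0, 163 and 87.4 CPM in Aβ0/0 mTEC.

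*Myog*, the myogenic bHLH factor myogenin, was at 115, 90.4 and 93.7 CPM in WT mTEC and 161, 117 and 106 CPM in Aβ0/0 mTEC, 2 of the Aβ0/0 values being above every WT value. The difference was within the spread (log2 fold change -0.39 as WT over Aβ0/0, SE 0.23, 95% confidence interval -0.93 to 0.15, adjusted p = 0.525, edgeR). In cTEC it had 41, 4 and 0 counts in WT and 0, 1 and 2 counts in Aβ0/0. In WT the log2 fold change of mTEC over cTEC was 7.41 (SE 1.12, adjusted p = 0.00331, edgeR). In Aβ0/0 mice, where cTEC held 3 counts in all, the ratio of mTEC to cTEC was 4074 with a 95% exact counting interval of 1394 to 19760, which covers counting error only, and edgeR gave an adjusted p = 0.000943. Both calls held in all 16 alternatives of each comparison. With so few counts in cTEC, *Myog* passed the filter only through mTEC in both, so this persistence is no added support.

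The *Myog* promoter is shown for comparison with that of *Ptf1a*, as both factors are of the bHLH class and *Myog* was detected in every Aβ0/0 mTEC library. The gene lies on chromosome 1 between 134289989 and 134292548 on the plus strand, and the window is chr1:134289754-134290053 (GRCm38.p6, plus strand), with E-boxes in capitals.

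Myog promoter: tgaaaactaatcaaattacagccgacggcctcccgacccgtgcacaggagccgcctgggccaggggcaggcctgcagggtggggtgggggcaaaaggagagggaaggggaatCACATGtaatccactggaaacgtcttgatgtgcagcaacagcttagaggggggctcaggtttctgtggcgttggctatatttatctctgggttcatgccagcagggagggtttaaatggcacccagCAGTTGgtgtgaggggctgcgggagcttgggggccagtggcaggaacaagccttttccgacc

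The 2 E-boxes begin 138 and 12 bases before the RefSeq start, and TATTTAT, present in 5.6% of promoters, begins 61 bases before it. These are matches of letters only.

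Among 25 muscle genes, 24 were tested between the genotypes and none was called, with a median log2 fold change of 0.59. An unadjusted p under 0.05 was reached by 2 of them, next to 2859 of all 18636 genes (edgeR). The skeletal actin *Acta1* was at 95.6 ± 27.7 CPM in WT and 93.8 ± 15.9 CPM in Aβ0/0 mTEC, and the myosin light chain *Myl1* at 75.9 ± 31.3 and 89.7 ± 67.4 CPM. The muscle list summed to between 480 and 716 CPM in WT mTEC and between 399 and 737 CPM in Aβ0/0 mTEC, against 19.2 to 51.0 CPM in cTEC. *Myod1*, the bHLH factor that acts upstream of *Myog* in muscle, was called higher in WT mTEC, with 0.973 ± 0.261 CPM there and no count in any Aβ0/0 mTEC library (at least 9.25-fold, adjusted p = 0.0352, edgeR), so that it passed the filter only through WT.

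*Spib*, an ETS factor required for intestinal microfold cells and also active in B cells and plasmacytoid dendritic cells, was at 299, 202 and 235 CPM in WT mTEC and 299, 239 and 183 CPM in Aβ0/0 mTEC. The ranges overlapped, with Aβ0/0 replicate 3 below every WT library. The log2 fold change was 0.01 (SE 0.25, 95% confidence interval -0.58 to 0.60, adjusted p = 0.993, edgeR), which as a ratio runs from 0.667 to 1.52. In cTEC *Spib* was at 13.8, 11.6 and 4.51 CPM in WT and 15.4, 3.33 and 1.46 CPM in Aβ0/0, below every mTEC library. The log2 fold change of mTEC over cTEC was 4.62 in WT (SE 0.45, adjusted p = 0.000645, edgeR) and 5.15 in Aβ0/0 (SE 0.88, adjusted p = 0.0187, edgeR). The Aβ0/0 call was lost without mTEC replicate 1 or 2 or cTEC replicate 2, with an adjusted p of up to 0.0774. The transcript *Spib*-201 held 96.1% to 99.3% of the *Spib* counts in the mTEC libraries of both genotypes.

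*Sox8*, an HMG box factor of microfold cells, was at 10.3, 5.74 and 6.12 CPM in WT mTEC and 24, 18.7 and 1.47 CPM in Aβ0/0 mTEC. The Aβ0/0 libraries thus stood on both sides of WT, 2 above and 1 below (log2 fold change -1.02, SE 0.93, adjusted p = 0.725, edgeR). In cTEC it had 136, 138 and 4 counts in WT and 36, 1 and 2 counts in Aβ0/0. In Aβ0/0 mice all mTEC libraries were above all cTEC libraries (log2 fold change 5.06, SE 1.8, unadjusted p = 0.0232, adjusted p = 0.184, edgeR), and in WT mice the log2 fold change was 1.15 (SE 1.02, adjusted p = 0.462, edgeR). The transcript in use differed between pools as well. *Sox8*-201 held 67.5% to 83.6% of the counts in WT mTEC and 28% to 100% in Aβ0/0 mTEC, where the shorter *Sox8*-202 held 70.5% in replicate 2. Scaled to length, *Sox8*-201 made up 36.5% to 58.5% and *Sox8*-202 41.5% to 63.5% of the *Sox8* TPM in WT mTEC. *Sox8* shares 329 exonic bases with an antisense gene, *2810468N07Rik*.

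Of 14 microfold genes, all tested, none was called between the genotypes, and the median log2 fold change was -0.33. An unadjusted p under 0.05 was reached by 3 of them, next to 2859 of all 18636 genes (edgeR). The genes with the highest CPM, *Anxa5* and *Clu*, were at 1090 ± 120 and 1050 ± 156 CPM in WT mTEC and at 1230 ± 229 and 1050 ± 73.3 CPM in Aβ0/0 mTEC. Both are expressed by many cell types. Between subsets, 11 of the 14 were called higher in mTEC in WT, next to 18.0% of all genes, and 10 in Aβ0/0, next to 3.45%. As *Spib* is also a gene of B cells and plasmacytoid dendritic cells, their levels are given here. All 6 genes of the B cell list had counts in WT mTEC, with a sum of 32.3 to 53.5 CPM, and 7.47 to 30.6 CPM in Aβ0/0 mTEC, where *Cd79a* was at 0.38 CPM against 4.78 CPM in WT. All 6 genes of the plasmacytoid list had counts too, with 1052 to 1318 CPM in WT and 936 to 1248 CPM in Aβ0/0 mTEC. Most of this came from *Ly6d*, *Irf7* and *Bst2*, which epithelial cells also express, while the defining gene *Siglech* was at 2.64 CPM in WT and 0.771 CPM in Aβ0/0 mTEC. In cTEC the B cell list summed to 2.92 to 7.29 CPM in WT and 0.89 to 8.43 CPM in Aβ0/0, below the mTEC sums in WT, and the plasmacytoid list to between 654 and 1102 CPM. The part of these cells in the *Spib* level was not tested.

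*Hnf4a* and *Hnf4g* are nuclear receptors of intestinal and hepatic epithelium. *Hnf4a* had 143, 102 and 29 counts in WT mTEC and 73, 1 and 1 in Aβ0/0 mTEC, so 2 of the 3 Aβ0/0 libraries nearly lacked it while replicate 1 lay within the WT range. The log2 fold change was 1.75 with an SE of 1.74 (adjusted p = 0.755, edgeR). It was called higher in WT when Aβ0/0 replicate 1 was left out (log2 fold change 6.35, adjusted p = 0.0372, edgeR), so that 1 library decided the call. The Aβ0/0 libraries left then had 1 count each, and *Hnf4a* passed the filter only through WT. Of the fits that left out 1 replicate, this one also called the most genes over the whole table. In cTEC it had 4, 0 and 0 counts in WT and none in Aβ0/0, and WT mTEC were above WT cTEC with a log2 fold change of 5.90 (SE 1.56, adjusted p = 0.0258, edgeR). That call was lost without WT mTEC replicate 1 or 2 (adjusted p = 0.106 and 0.079, edgeR).

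*Hnf4a* lies on chromosome 2 between 163506808 and 163572910 on the plus strand and has 2 groups of starts, known for an upstream promoter used in gut and pancreas and a downstream one used in liver and gut. Both RefSeq windows are shown because the files separate their transcripts. The upstream window is chr2:163506607-163506906 and the downstream one chr2:163546905-163547204 (GRCm38.p6, plus strand), with E-boxes in capitals.

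Hnf4a upstream promoter: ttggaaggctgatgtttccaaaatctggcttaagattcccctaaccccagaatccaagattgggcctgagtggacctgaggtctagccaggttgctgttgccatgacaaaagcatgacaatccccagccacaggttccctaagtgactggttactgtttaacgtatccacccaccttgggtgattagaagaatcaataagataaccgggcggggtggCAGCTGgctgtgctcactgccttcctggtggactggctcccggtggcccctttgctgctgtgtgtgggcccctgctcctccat

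Hnf4a downstream promoter: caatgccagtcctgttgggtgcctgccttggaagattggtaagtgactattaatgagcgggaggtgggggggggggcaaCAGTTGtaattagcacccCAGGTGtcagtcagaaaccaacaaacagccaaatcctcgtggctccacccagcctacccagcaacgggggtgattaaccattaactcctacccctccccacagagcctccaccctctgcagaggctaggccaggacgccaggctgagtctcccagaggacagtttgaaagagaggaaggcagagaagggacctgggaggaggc

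The upstream window held 1 E-box, 33 bases before the start, and the downstream window 2, 171 and 153 bases before it, next to 72.3% of all promoters with at least 1. Transcripts from the downstream starts took 98.0%, 94.1% and 91.5% of the *Hnf4a* counts in WT mTEC replicates 1, 2 and 3, and 100% in Aβ0/0 replicate 1, the 4 libraries with at least 20 counts. The only upstream transcript in the files, *Hnf4a*-205, is 431 bases long and had between 2.46 and 6.00 counts in WT mTEC. Scaled to length, these few counts made up 21.9%, 46.7% and 48.5% of the *Hnf4a* TPM in replicates 1, 2 and 3, so the share of each start depended on the scale.

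*Hnf4g* was at 11.5, 6.23 and 6.75 CPM in WT mTEC and 12.6, 7.56 and 0.0377 CPM in Aβ0/0 mTEC, 1 library of which had a single count. The genotypes did not differ beyond the spread (log2 fold change 0.25, SE 1.39, adjusted p = 0.972, edgeR). Unlike most other factors it was well represented in cTEC, with 140, 183 and 110 counts in WT and 166, 58 and 560 in Aβ0/0. The WT mTEC libraries were above the WT cTEC ones, but by less than could be called (log2 fold change 0.64, 95% confidence interval -0.50 to 1.78, adjusted p = 0.394, edgeR). The transcript *Hnf4g*-201 held at least 66.7% of the counts in every library with at least 20.

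Of 20 enterohepatic genes 19 were tested, 3 were called higher in WT mTEC and none lower, and the median log2 fold change was 0.48. These were *Apoh* with 4.46 ± 0.553 CPM in WT and no count in Aβ0/0 mTEC (at least 42.6-fold, adjusted p = 0.0352, edgeR), *Alb* with 4.25 ± 0.736 CPM and at most 1 count, and *Apoa2* with 23.7 ± 4.43 and 1.79 ± 0.329 CPM (log2 fold change 3.73, SE 0.46, adjusted p = 0.0352, edgeR). All are plasma protein genes of the liver. *Apoh* and *Alb* passed the filter only through WT, and of the 3 calls only that of *Apoa2* had more than 1 count in an Aβ0/0 mTEC library. The sum of the list was 3365, 3595 and 2819 CPM in WT and 8695, 2454 and 1205 CPM in Aβ0/0 mTEC. Aβ0/0 replicate 1 had the highest sum of the 3 Aβ0/0 mTEC libraries for the microfold, ciliated, goblet and airway, neuroendocrine and acinar lists too, and the most genes detected, but the lowest sum for the muscle list and less than replicate 2 for the keratinocyte list.

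*Foxj1*, the forkhead factor of motile cilia, was at 48.5, 33.5 and 20.7 CPM in WT mTEC and 42.7, 4.92 and 13.8 CPM in Aβ0/0 mTEC. Replicate 1 of Aβ0/0 lay within the WT range and the others below it (log2 fold change 0.70, SE 0.76, adjusted p = 0.781, edgeR). With 1 replicate left out, the log2 fold change was between 0.24 and 1.85, without a call. In WT cTEC it had 2.64, 7.96 and 2.32 CPM, and the log2 fold change of mTEC over cTEC was 2.99 (SE 0.59, adjusted p = 0.00801, edgeR). In Aβ0/0 cTEC it had 16, 155 and 0 counts, and the difference was not called (log2 fold change 3.56, SE 1.78, adjusted p = 0.361, edgeR). All 22 genes of the ciliated list were tested between the genotypes of mTEC and all 22 had a fitted difference toward WT (median log2 fold change 0.99), of which 1 was called, next to 5.32% of all genes. This was *Lrrc23*, a radial spoke gene, with 27.3 ± 6.54 and 7.51 ± 1.95 CPM (log2 fold change 1.86, SE 0.39, adjusted p = 0.0414, edgeR). *Tppp3*, highest in CPM, was at 86.1 ± 19.7 and 76.2 ± 51.3 CPM. The summed level was 356, 397 and 281 CPM in WT and 318, 113 and 163 CPM in Aβ0/0 mTEC.

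*Grhl3*, a grainyhead factor of the epidermal barrier, was at 29, 14.6 and 20.4 CPM in WT mTEC and 19.8, 3.6 and 0.867 CPM in Aβ0/0 mTEC. Again replicate 1 of Aβ0/0 was within the WT range and the others below it (log2 fold change 1.35, SE 1.03, adjusted p = 0.652, edgeR). The log2 fold change ran from 0.82 to 3.26 when 1 replicate was left out, without a call. WT cTEC held 1.24, 3.11 and 2.08 CPM of it, and Aβ0/0 cTEC 1.12, 5.87 and 0.0276 CPM. mTEC were above cTEC in WT (log2 fold change 3.31, SE 0.52, adjusted p = 0.00362, edgeR), and in Aβ0/0 the groups overlapped (log2 fold change 1.80, SE 1.77, adjusted p = 0.679, edgeR). Of 19 keratinocyte genes, all tested, 1 was called higher in WT mTEC and the median log2 fold change was 0.25. The called gene was the keratin *Krt77*, named after its values were seen. *Krtdap* was at 245 ± 14.4 CPM in WT and 258 ± 192 CPM in Aβ0/0 mTEC and *Sprr1a*, a gene of the cornified envelope, at 202 ± 41.9 and 140 ± 73.4 CPM. The Aβ0/0 values of *Krtdap* were 199, 473 and 103 CPM, highest in replicate 2, whereas *Grhl3* was highest in replicate 1.

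*Foxa2* and *Foxa3* are forkhead factors of endodermal secretory epithelium. *Foxa2* was at 4.44, 3.87 and 6.78 CPM in WT mTEC and 5.43, 0 and 1.55 CPM in Aβ0/0 mTEC (log2 fold change 1.07, SE 1.61, adjusted p = 0.854, edgeR). *Foxa3* was at 7.94, 5.38 and 7.85 CPM in WT and 1.85, 0 and 7.95 CPM in Aβ0/0 mTEC (log2 fold change 1.08, SE 1.60, adjusted p = 0.849, edgeR). When 1 replicate was left out, the log2 fold change ran from 0.49 to 2.68 for *Foxa2* and from 0.50 to 2.87 for *Foxa3*, without a call. Both were absent from Aβ0/0 replicate 2, but *Foxa2* was within the WT range in replicate 1 and *Foxa3* at the WT level in replicate 3. In WT cTEC *Foxa2* had 5, 0 and 0 counts and *Foxa3* 12, 27 and 1. The log2 fold change of mTEC over cTEC in WT was 6.18 for *Foxa2* (SE 1.43, adjusted p = 0.0147, edgeR) and 3.94 for *Foxa3* (SE 1.00, adjusted p = 0.0215, edgeR). For *Foxa3* the call was lost when the pool of mice, from which both subsets were sorted, was used as a block (adjusted p = 0.0547, edgeR). Both calls were lost without any 1 of the WT mTEC replicates, with an adjusted p between 0.0506 and 0.0844.

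The transcripts of *Foxa2* alternated between pools. *Foxa2*-202, which starts at base 148045948 of chromosome 2, held 99.1 of 104 counts in WT mTEC replicate 1 and 209 of 216 in replicate 3, whereas *Foxa2*-201, which starts upstream at 148046969 on this minus-strand gene, held 103 of 128 in replicate 2. In Aβ0/0 mTEC *Foxa2*-201 held all 141 counts of replicate 1 and *Foxa2*-202 all 41 of replicate 3. With totals this low and PCR before sequencing, these counts are not independent molecules. *Foxa3* had a single transcript in the files.

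Of 20 genes of goblet and airway secretory cells, 19 were tested, 2 were called higher in WT mTEC and none lower, and the median log2 fold change was 0.48. *Sftpa1*, a surfactant protein, was at 15, 18.3 and 15.4 CPM in WT with at most 2 counts in an Aβ0/0 mTEC library, and *Scgb3a1*, an airway secretoglobin, at 4.69 ± 2.25 CPM in WT with no count in Aβ0/0 (at least 45.4-fold, both with an adjusted p = 0.0352, edgeR). Both passed the filter only through WT. The sum of the list overlapped, with 3883 to 6105 CPM in WT and 3583 to 10510 CPM in Aβ0/0 mTEC. Of 16 neuroendocrine genes none was called, with a median log2 fold change of 0.82 and 4 at an unadjusted p under 0.05, next to 2859 of all 18636 genes (edgeR). The neuroendocrine sum was 1414, 789 and 939 CPM in WT and 730.3, 541 and 401 CPM in Aβ0/0 mTEC. It was the only 1 of the 8 lineage lists whose sums did not overlap between the genotypes. *Chga*, a granule protein, was at 352 ± 169 CPM in WT and 124 ± 114 CPM in Aβ0/0 mTEC (adjusted p = 0.355, edgeR), and *Calca*, which encodes calcitonin, at 150 ± 27.3 and 33.7 ± 21.3 CPM (log2 fold change 2.15, SE 0.56, adjusted p = 0.0886, edgeR).

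**Figure D3:**
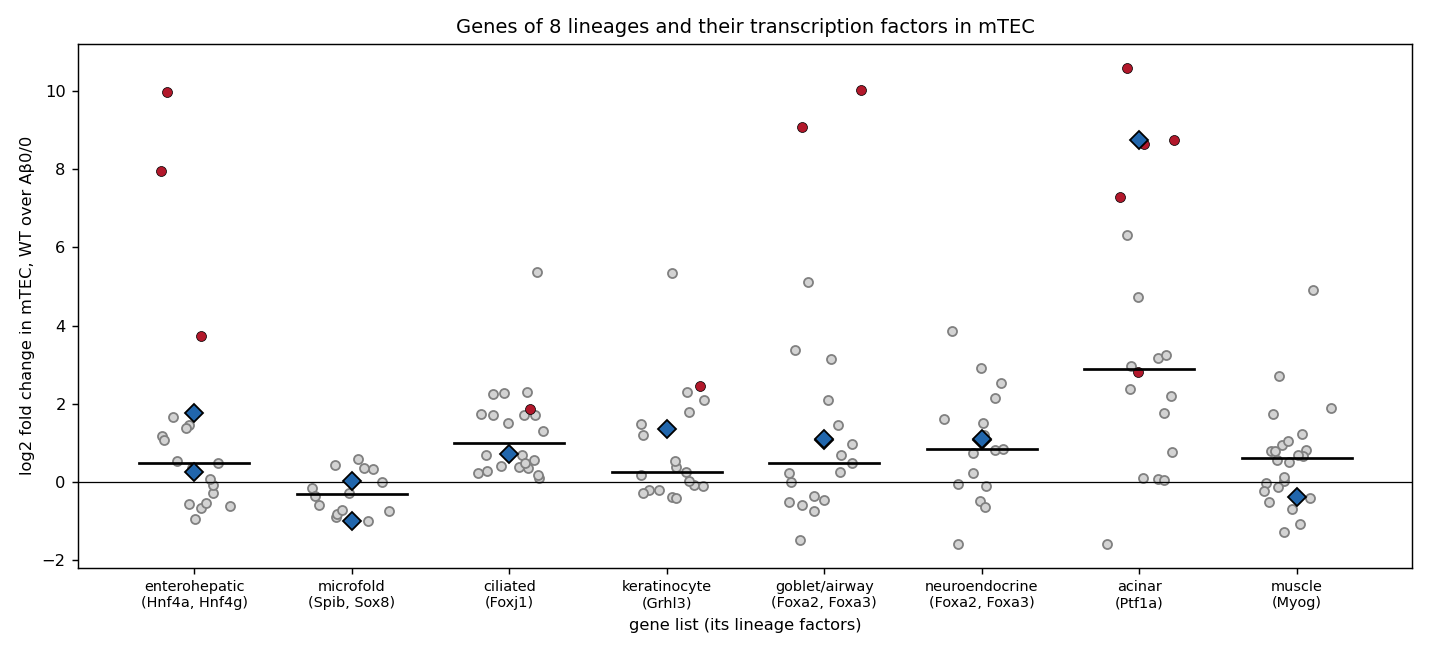
Log2 fold change in mTEC, WT over Aβ0/0, of the tested genes of 8 lineage lists (circles, red where called), the list medians (lines) and the lineage factors named under each list (diamonds). The acinar list had the highest median, 2.89, and held 5 called genes, while *Ptf1a* was the only factor called. *Ptf1a* and the called acinar genes other than *Clps* passed the filter on low counts only through WT.

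The genes called higher in WT mTEC numbered 5 of 18 for acinar, 3 of 19 for enterohepatic, 2 of 19 for goblet and airway, 1 of 22 for ciliated and 1 of 19 for keratinocyte genes, with none of 14 microfold, 16 neuroendocrine or 24 muscle genes. No test between lists was made. Of the called acinar genes *Cela3b*, *Pnlip*, *Cuzd1* and *Try4* had at most 1 count in an Aβ0/0 mTEC library and passed the filter only through WT, as did the genes of other lists named above as such, so the 5.32% of all genes called is not a like comparison. Among 30 other regulators of these lineages, 27 were tested and 3 called higher in WT, among them *Myod1* and *Pdx1*. *Pdx1*, a pancreatic and duodenal homeobox gene, had 0.742 ± 0.43 CPM in WT and no count in Aβ0/0 mTEC (at least 7.05-fold, adjusted p = 0.0397, edgeR). Like *Myod1* it passed the filter only through WT. Among 12 relatives of the factors' families, 11 were tested and 1 was called, again *Myod1*. Of the relatives with the highest CPM, *Sox9* was at 155 ± 10.2 CPM in WT and 188 ± 1.14 CPM in Aβ0/0 mTEC, without overlap but not called (log2 fold change -0.28, SE 0.15, adjusted p = 0.473, edgeR), and *Foxj2* at 44.3 ± 14.1 and 41.7 ± 10.7 CPM.

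**Figure D4:**
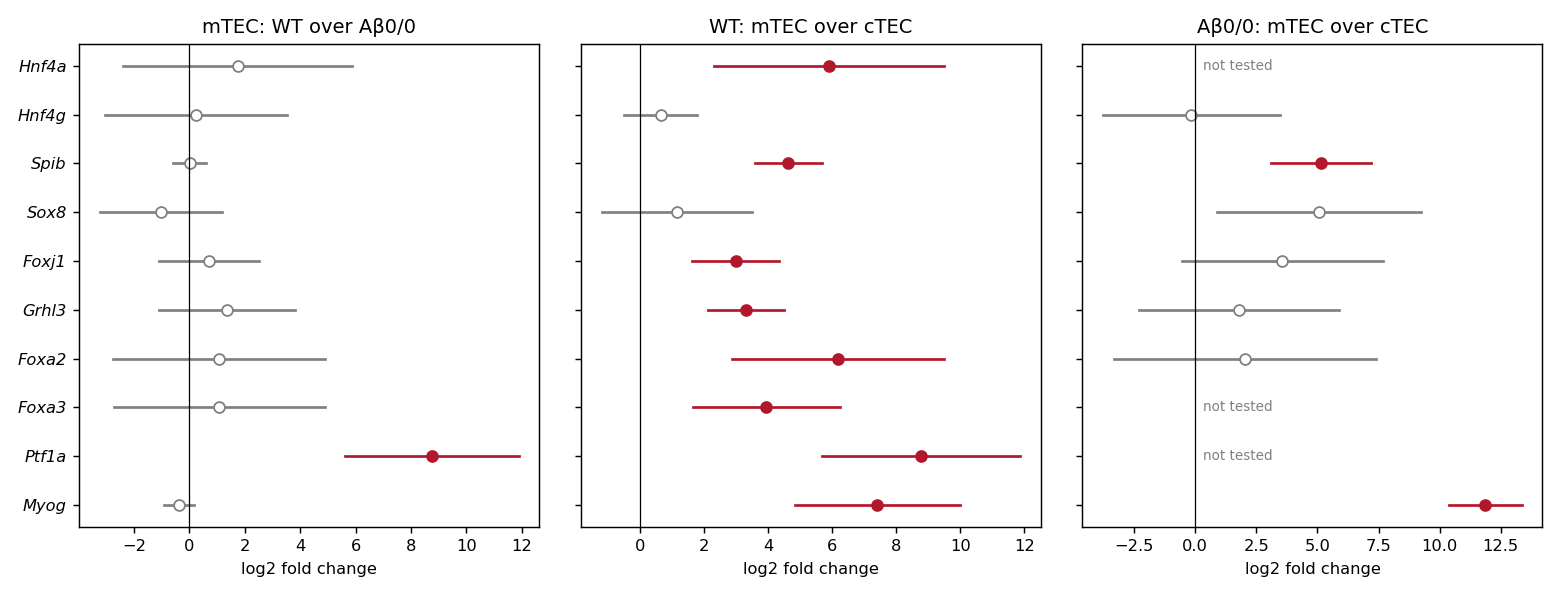
Log2 fold change with its 95% confidence interval from edgeR for each factor in 3 comparisons, filled red where the adjusted p was under 0.05 and open where it was not. In mTEC the interval was narrow and included 0 for *Spib* (-0.58 to 0.60) and *Myog* (-0.93 to 0.15), and wide for the less abundant factors. Factors that did not pass the filter on low counts are marked as not tested. The intervals drawn for *Ptf1a* (5.63 to 11.9 between the mTEC genotypes) were fitted against libraries at 0. They do not bound its fold from above.

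In cTEC the genotypes were compared for the 5 factors that passed the filter (*Hnf4g*, *Spib*, *Sox8*, *Foxj1* and *Grhl3*). None was called by edgeR and none had an unadjusted p under 0.05, next to 0.0194% of 15432 genes called. The largest fitted difference was that of *Sox8* (log2 fold change 2.92, SE 1.79). *Foxa3* did not enter the test, with 12, 27 and 1 counts in WT cTEC and 1, 0 and 0 in Aβ0/0 cTEC. The lowest WT library was above the highest Aβ0/0 one only through library size, at 0.0399 against 0.034 CPM from 1 count each. All 3 WT libraries were higher for 700 of the 15432 genes tested. Pooled counts over pooled library totals gave a ratio of 47.95, with a 95% exact counting interval of 8.13 to 1941. This came from 40 counts, 27 of them in WT replicate 2, against 1. The interval covers counting error only and not the spread between pools. Whether the genotype effect differed between mTEC and cTEC was tested on all 12 libraries. For *Ptf1a*, at 0 in 3 of the 4 groups, it could not be estimated. No factor was called by edgeR, next to 0.0103% of the 19461 genes. *Myog* was the 1 factor with an unadjusted p under 0.05 (log2 difference -4.46, SE 1.55, adjusted p = 0.535, edgeR), next to 1343 of the 19461 genes. Its cTEC libraries held 41, 4 and 0 counts in WT and 0, 1 and 2 in Aβ0/0. The difference was thus fitted near the floor of counts.

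For each factor the genes with the most similar pattern over the 12 libraries were looked up among 16149 genes with a mean of at least 1 CPM, on the log2(CPM + 0.5) scale. As the libraries of a group share their subset and genotype, the correlations are descriptions. *Spib* was closest to *Htr7* (Pearson's r = 0.984), *Csf2rb2* and *Card14*, and *Myog* to *Krt20* (r = 0.986), *Card14* and *Hsd17b6*. *Grhl3* was closest to *Lor* (r = 0.959), which encodes the cornified envelope protein loricrin, then *Pde2a* and *Zcchc18*, and *Foxj1* to *Cpm* (r = 0.946), *Apoa4* and *5730507C01Rik*. *Hnf4a* was closest to *Aatk* (r = 0.994), *Scn4a* and *Crocc2*, *Hnf4g* to *Exoc6* (r = 0.947), *Zfp472* and *Frk*, and *Sox8* to *Cap2* (r = 0.941), *Pkd2l2* and *Upp1*. *Foxa2* was closest to *Map6* (r = 0.981), *Trim40* and *Tmprss7*, and *Foxa3* to *Slc5a10* (r = 0.978), *Wee2* and *Izumo1*. For *Ptf1a* the closest were *Cd207*, *Car1* and *Mup8*.

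Other cells in the sorted mTEC were looked for with 7 lists of marker genes, which moved with genotype to a different extent. In WT mTEC the granulocyte list summed to 559 to 735 CPM, the dendritic cell and macrophage list to 68.3 to 104 CPM, the thymocyte list to 91.2 to 193 CPM, the endothelial list to 27.1 to 38.9 CPM and the fibroblast list to 187 to 285 CPM. In Aβ0/0 mTEC these sums were 76.4 to 311, 48.7 to 53.6, 45.4 to 147, 13.7 to 29.8 and 218 to 417 CPM. All 7 granulocyte and all 8 dendritic cell and macrophage genes had counts in WT mTEC, and *Ngp*, *Elane*, *Itgax* and *Adgre1* were at 0 in every Aβ0/0 mTEC library. Between the mTEC genotypes 2 of 8 dendritic cell and macrophage genes (*Adgre1*, with a mean of 19.3 CPM in WT, and *Itgax*, with 0.897 CPM) and 2 of 6 tested granulocyte genes (*Ngp*, with 14.7 CPM, and *S100a8*) were called higher in WT by edgeR, next to 5.32% of all genes. *Adgre1*, *Itgax* and *Ngp* were named after their values were seen and passed the filter only through WT. No gene tested from the other 5 lists was called. Of the genes with the highest CPM in each list, *S100a8* was called higher in WT (321 ± 42.6 against 54.4 ± 27.4 CPM, adjusted p = 0.0352, edgeR), while *Lck* (35.6 ± 10 against 26.9 ± 22), *Cd79b* (19.8 ± 4.63 against 15 ± 8.75), *Ly6d* (481 ± 55 against 374 ± 166), *Zbtb46* (27.7 ± 5 against 33.2 ± 8.77), *Pecam1* (18 ± 2.95 against 14.2 ± 5.1) and *Dcn* (143 ± 37.4 against 261 ± 135) were not. The part of such cells in the levels of the factors was not tested.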

How the data were processed

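RNA of 12 libraries was read with the SMART-Seq v4 kit, which does not mark strand, and per the labels the reads were demultiplexed with bcl2fastq 2.20.0, trimmed with Trim Galore and quantified with kallisto 0.43 on GENCODE transcripts (GRCm38). The authors deposited estimated counts and TPM per transcript for each library, and a table of log2 values made with the regularized log transformation of DESeq2 over all libraries. Estimated counts were summed per gene here and rounded, and 1295 of 109282 transcripts matched no gene and were left out (0.45% to 0.512% of the counts of a library).

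Each comparison of 2 groups was fitted on its 6 libraries with edgeR 4.0.16 in R 4.3.3 (filterByExpr, TMM scaling, robust quasi-likelihood test), with Benjamini-Hochberg adjustment over all genes tested and a threshold of 0.05. CPM of the factors, *H2-Ab1* and *Aire* were scaled by TMM over the 12 libraries and CPM of named list genes by TMM over the 6 mTEC libraries, while sums over lists and the CPM of *Cd79a*, *Siglech*, *Adgre1*, *Itgax* and *Ngp* were relative to the plain library total. Levels were compared between the factors in TPM only, while genes within lists were ranked, and classes of level set, by CPM, which is not scaled to gene length. A bound on a fold was set against 3 counts per library, with CPM relative to the plain library total. The alternatives used limma 3.58.1 and DESeq2 1.42.0, other filters and scalings, and leaving out each replicate. The fits were tested on simulated data. Sums, shares and figures were made with Python 3.11.15, numpy 2.4.6, pandas 2.3.3, scipy 1.17.1 and matplotlib 3.10.9.

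The factors and the lists of genes were chosen with earlier results of these data known. Named from each list were the genes called between the mTEC genotypes, at most 4 by level in WT mTEC, or, with fewer than 2 called, the 2 highest in WT mTEC. For each of the 7 lists of other cells the highest gene was named, and for each factor the 3 genes of most similar pattern. Exceptions are stated beside the genes, and 1 gene that the rule named is not reported here. mTEC and cTEC of the same genotype and replicate number were sorted from 1 pool of mice, as given in the cell yields of the study, so the pairs are set by the design. Deviations of the paired libraries from their group means correlated at 0.287, 0.0205 and 0.141 in WT and at 0.277, 0.121 and 0.0415 in Aβ0/0. Promoters are those of RefSeq (GRCm38.p6), in which 8 of the 10 factors had an entry, without one for *Hnf4g* and *Foxj1*. Intervals on counts cover counting error only.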

Additional observations from a re-analysis of the deposited data

How the results depend on the processing

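The counts of genes called depended strongly on the processing, and the cause was not tested. Between the mTEC genotypes 1054 genes were called, against 2476 with DESeq2 on the 6 libraries, 20 with edgeR on all 12 libraries, 1913 with limma on the deposited log2 values, 11 with a mean of at least 10 counts, 27 without a filter, and 0 to 2377 when 1 replicate was left out. Of the factors, 1 was called, against 2 on the deposited log2 values (*Hnf4a* and *Ptf1a*), 0 with edgeR or DESeq2 on all 12 libraries, 0 with either other filter, and 0 to 2 without 1 replicate. The adjusted p of *Ptf1a* ranged from 3.21e-06 to 0.23, and the call was lost in 10 of 16 alternatives (edgeR, limma or DESeq2). DESeq2 on all 12 libraries was added after seeing the data.

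Between the cTEC genotypes 3 genes were called, against 123 and 352 with DESeq2 on 6 and 12 libraries, 16 with edgeR on 12, 12 and 13 with limma on log2(TPM + 0.1) and log2(TPM + 1), 20 on the deposited log2 values, 7 without a filter and 1 to 3 without 1 replicate. Between WT mTEC and cTEC the 4997 genes called became 2760 with edgeR on 12 libraries and 3395 to 7572 without 1 replicate, and the 8 factors became 3 (*Myog*, *Ptf1a* and *Spib*) and 5 to 8. Between Aβ0/0 mTEC and cTEC the 878 genes became 2771 and 3935 with DESeq2 on 6 and 12 libraries, 1819 with edgeR on 12, 1444 on log2(TPM + 1), 2528 on the deposited log2 values and 338 to 456 without 1 replicate, and the 2 factors became 4, 6, 4 with DESeq2 on 6 and 12 libraries and the deposited log2 values, and 1 to 2 without 1 replicate. For the test of the difference between subsets the 2 genes became 394 with DESeq2 and 1 to 18 without 1 library.

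The genotypes share only a replicate number, whose libraries correlated at 0.325, 0.133 and 0.0729 in mTEC and 0.278, -0.091 and 0.0278 in cTEC after removal of group means. With the replicate number as a block, 0 genes and 0 factors were called between the mTEC genotypes (*Ptf1a* at an adjusted p = 0.23, edgeR), and 0 genes between the cTEC genotypes. With the pool of mice as a block, 0 genes were called for the difference between subsets, and between the subsets the block changed no factor's call other than that of *Foxa3*.

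Of the factors' fold changes, 143 kept direction and call between the mTEC genotypes, 144 between WT subsets and 100 between Aβ0/0 subsets, while 10, 16 and 3 lost the call. Near 0, the log2 fold change turned sign for *Spib* between the mTEC genotypes (-0.00565 without Aβ0/0 replicate 2, -0.158 without Aβ0/0 replicate 3, -0.159 without WT replicate 1, and up to 0.217 over the fits that leave out 1 replicate) and for *Hnf4g* (-0.339 without Aβ0/0 replicate 3, -0.0864 without WT replicate 1, up to 1.11 over the fits that leave out 1 replicate and up to 1.61 over all alternatives). Between Aβ0/0 subsets it turned for *Hnf4g* (0.00993 with the block, 0.824 without cTEC replicate 3, 0.41 without mTEC replicate 3, down to -1.1 over the fits that leave out 1 replicate and to -1.21 over all alternatives) and *Grhl3* (-0.129 without mTEC replicate 1, and up to 3.8 over the fits that leave out 1 replicate). Counts of 3 or fewer in a library limit what can be said of the less abundant factors in Aβ0/0 mTEC and in cTEC.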
